A study of Mus musculus with 15 samples.

Results

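Integrins are paired surface receptors made of an alpha and a beta chain, and the alpha chain largely sets which matrix protein is bound. The chains described here are those of the receptors for collagens and laminins: Itga1, Itga2, Itga10 and Itga11, which bind collagens as partners of the beta1 chain, Itga3, Itga6 and Itga7, which bind laminins, and Itgb4, the chain that pairs with the alpha6 chain in hemidesmosomes. The rule took them by gene name, a choice made with earlier results of these data known, and all 8 were found among the 54532 genes of the count table. All 8 passed the filter on low counts, which kept 15590 genes.

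The cells were bone marrow mesenchymal stem cells (BM-MSCs) of C57BL/6 mice, bought as primary cells and used at passages 3 to 5. Every group received 5 Gy of irradiation and was then kept for 48 h, so that no unirradiated cells enter any comparison. The IR-Con cells had no gel. The Gel cells were cultured with an alginate hydrogel that carries grafted peptides with the RGD motif (RGD-Alg), Gel/IL-12 added the cytokine interleukin-12, Gel/Laponite added the clay nanoplatelets Laponite, and Gel/Laponite@IL-12 held IL-12 adsorbed on Laponite. Each of the 5 groups had 3 libraries of total RNA, 15 in all, and nothing in the labels says that they came from separate cultures, so that p-values measure the spread between these libraries, which may be technical. All gels carry RGD, alginate and the culture format together, which cannot be told apart in the comparison with IR-Con.

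RGD is the short motif by which fibronectin and vitronectin are held, and it is recognised by another set of integrins, among them those with the alpha5, alphav and alpha8 chains. Collagen-binding alpha chains instead use an inserted domain that grips the collagen triple helix, and laminin-binding chains meet laminins of the basement membrane. In stromal cells of the marrow, receptors of these kinds hold the cell to its matrix. A comparison of the gels with IR-Con therefore shows the levels of receptors whose ligands the gel was not grafted with, beside those for its grafted motif.

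The libraries held 14506459 to 17818982 counts. The IR-Con libraries scattered more than those of any gel: their biological coefficient of variation reached 17.1%, where no gel group exceeded 4.05%. The edgeR fit used here estimates the spread of a gene over all groups together. Its p-values against IR-Con can therefore be too small, and those between gels too large. For the gels averaged against IR-Con, edgeR called 8573 genes and limma voom with group weights 5062. For Laponite within the gels, the counts were 134 and 591. IR-Con replicate 3 had the most genes with a count, 23143, against 20281 and 21114 in the other IR-Con libraries and 22115 to 22706 in the gels, and its mitochondrial share was 1.91%, against 2.49% and 2.56% there and 2.79% to 3.06% in the gels. Markers of mesenchymal stromal cells summed to 2236 to 2432 counts scaled to library size (CPM) in IR-Con and 2883 to 3042 in the gels, with 4 of the 10 genes higher in the gels, 3 lower and 3 not passing. Cxcl12, a chemokine, went from 413.9 to 436.9 CPM up to 906.8 to 1036 CPM, while Pdgfrb, a growth factor receptor, was lower (log2 fold change -0.41). Markers of blood cells summed to 26.6 to 33.3 and 58.5 to 67.3 CPM, with 5 of their 9 genes at a mean under 0.1 CPM. Cd14, a receptor for bacterial lipopolysaccharide, made up most of that difference (13.8 to 14.7 and 43.1 to 51.2 CPM). Of the 4 blood-cell genes that could be tested, edgeR called 2 up, Cd14 and Cd68, and 1 down. Cd68 rose by less (log2 fold change 0.38, edgeR adjusted p = 0.018), and its CPM overlapped (5.71 to 9.98 and 8.38 to 11.4). The gene called down was Lyz2, a macrophage lysozyme (-1.27). Endothelial markers summed to 9.53 to 10.6 and 8.45 to 12.2 CPM. Epithelial markers, of the tissue in which Itgb4 is best known, summed to at most 1.52 CPM in any library.

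The sequences upstream of the 4 collagen-binding genes are shown because Itga10 and Itga11 fell in every gel library while Itga1 and Itga2, which lie next to each other on chromosome 13, did not. Each run is the 250 bases before the RefSeq start of the gene (GRCm38.p6), 5′ to 3′ on the gene's strand. RefSeq windows were found for 5 of the 8 chains. Capitals mark a match, on either strand, to a motif of Sp1 (GGGCGG), the TATA box (TATAAA), the CCAAT box (CCAAT), AP-1 (TGANTCA), TEAD factors (GGAATG), ETS factors (CCGGAAG) or HIF factors (ACGTG).
Itga10, chr3:96645334-96645583, plus strand: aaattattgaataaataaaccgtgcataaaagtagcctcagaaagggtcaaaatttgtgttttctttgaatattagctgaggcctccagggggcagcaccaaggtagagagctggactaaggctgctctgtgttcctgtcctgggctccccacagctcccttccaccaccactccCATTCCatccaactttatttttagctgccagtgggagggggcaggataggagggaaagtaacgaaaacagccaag
Itga11, chr9:62677605-62677854, plus strand: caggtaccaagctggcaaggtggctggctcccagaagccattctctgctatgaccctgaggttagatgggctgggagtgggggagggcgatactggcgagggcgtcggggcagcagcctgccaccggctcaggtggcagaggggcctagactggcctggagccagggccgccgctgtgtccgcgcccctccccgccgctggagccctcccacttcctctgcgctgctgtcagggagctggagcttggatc
Itga1, chr13:115101965-115102214, minus strand: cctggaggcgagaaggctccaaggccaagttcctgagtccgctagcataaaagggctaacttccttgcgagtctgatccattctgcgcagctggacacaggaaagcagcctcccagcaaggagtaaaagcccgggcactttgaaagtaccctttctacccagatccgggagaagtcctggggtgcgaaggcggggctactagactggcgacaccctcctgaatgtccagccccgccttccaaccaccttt
Itga2, chr13:114932101-114932350, minus strand: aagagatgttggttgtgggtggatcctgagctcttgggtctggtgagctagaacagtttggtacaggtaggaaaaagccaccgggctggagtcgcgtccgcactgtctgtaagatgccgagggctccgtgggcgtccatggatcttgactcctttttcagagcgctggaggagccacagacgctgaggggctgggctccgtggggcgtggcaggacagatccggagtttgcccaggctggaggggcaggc

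Of the 7 motifs, only GGAATG was found in these 4 windows, once in Itga10 and read on the opposite strand. It occurs in 12.6% of the 32851 promoter windows of the same length. The GC content was 48.0% for Itga10, 68.4% for Itga11, 57.6% for Itga1 and 60.8% for Itga2, beside a median of 52.4% over all windows. A match is a description of letters and no match says only that these letters are not in the window.

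Itga10 fell most of the collagen-binding chains. It encodes a collagen receptor best known from cartilage and also found on mesenchymal stem cells, and lies on chromosome 3 (96645584 to 96664519, GRCm38). Its level in IR-Con was 14.6, 12.9 and 12.4 CPM. The Gel libraries had 2.04, 2.38 and 2.81 CPM, Gel/IL-12 had 2.27, 1.91 and 1.97, Gel/Laponite had 3.23, 2.59 and 2.16, and Gel/Laponite@IL-12 had 1.98, 2.56 and 1.98. Every gel library was below every IR-Con library. These levels rest on 179 to 240 counts in IR-Con and 30 to 52 in the gels. The gels averaged 5.75-fold below IR-Con (log2 fold change -2.52, SE 0.12, edgeR quasi-likelihood adjusted p = 2.9e-13). Chondrocyte markers, the cells in which Itga10 is best known, summed to 37.3 to 42.7 CPM in IR-Con and 31.6 to 39.4 in the gels, nearly all of it Sox9, which did not pass the test. Comp, a cartilage matrix protein, fell with Itga10, from 2.98 to 4.80 CPM to 1.38 to 2.48 CPM with no overlap (log2 fold change -1.12, SE 0.19, edgeR adjusted p = 3.78e-05), and Acan, the cartilage proteoglycan aggrecan, was higher (0.79, SE 0.30, edgeR adjusted p = 0.032). The part of such cells in the fall was not tested. In the GENCODE M21 annotation 33.5% of its exon bases are shared with Gm42957 on the same strand, which had 0 to 2 counts in any library. In such bulk libraries fewer cells of a type and less RNA per cell cannot be told apart.

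Itga11, a receptor for fibrillar collagens on fibroblasts and stromal cells, is on chromosome 9 (62677826 to 62783982). It fell too, by less. It stood at 118.8, 110.4 and 132.8 CPM in IR-Con. The Gel libraries had 87.9, 92.4 and 91.5 CPM, Gel/IL-12 had 81.6, 85.1 and 82.0, Gel/Laponite had 86.4, 81.8 and 80.5, and Gel/Laponite@IL-12 had 82.6, 79.4 and 80.1. The groups did not overlap, and the gels lay close to one another. The gel mean was 1.43-fold lower (log2 fold change -0.52, SE 0.05, edgeR adjusted p = 5.8e-09).

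Itga1, the alpha1 chain that prefers basement membrane collagens, was the only member called higher. IR-Con replicate 1 had 25.7 CPM and the other IR-Con libraries 18.9 and 17.5, and the gels ranged from 21.1 to 26.1 CPM with a median of 25.2. The groups overlapped, since only 2 of the 12 gel libraries were above IR-Con replicate 1. The log2 fold change was 0.23 (SE 0.09, edgeR adjusted p = 0.032), but it was 0.16 without IR-Con replicate 2 (adjusted p = 0.18), 0.12 without replicate 3 (0.22) and 0.42 without replicate 1 (0.000104), and an exact two-sided permutation test of 3 against 12 libraries gave p = 0.057. In the deposited FPKM values the gels (1.67 to 2.09) did not overlap IR-Con (1.05 to 1.46), but there IR-Con replicate 1, with the most counts of that group (423), was the lowest (1.05), and replicate 2, with 295 counts, the highest (1.46). The gene shares 3.68% of its exon bases with Gm49395 (0 to 10 counts) and holds Pelo (55 to 91 counts) without a shared exon base.

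Itga2, the alpha2 chain of the platelet and epithelial collagen receptor, rested on 70 to 101 counts in IR-Con and 61 to 111 in the gels. It stood at 6.13, 4.48 and 5.42 CPM in IR-Con and at 3.90 to 6.38 CPM in the gels, so that the groups overlapped. Its log2 fold change was -0.03, with a 95% interval of -0.28 to 0.23 (edgeR adjusted p = 0.88).

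**Figure D1:**
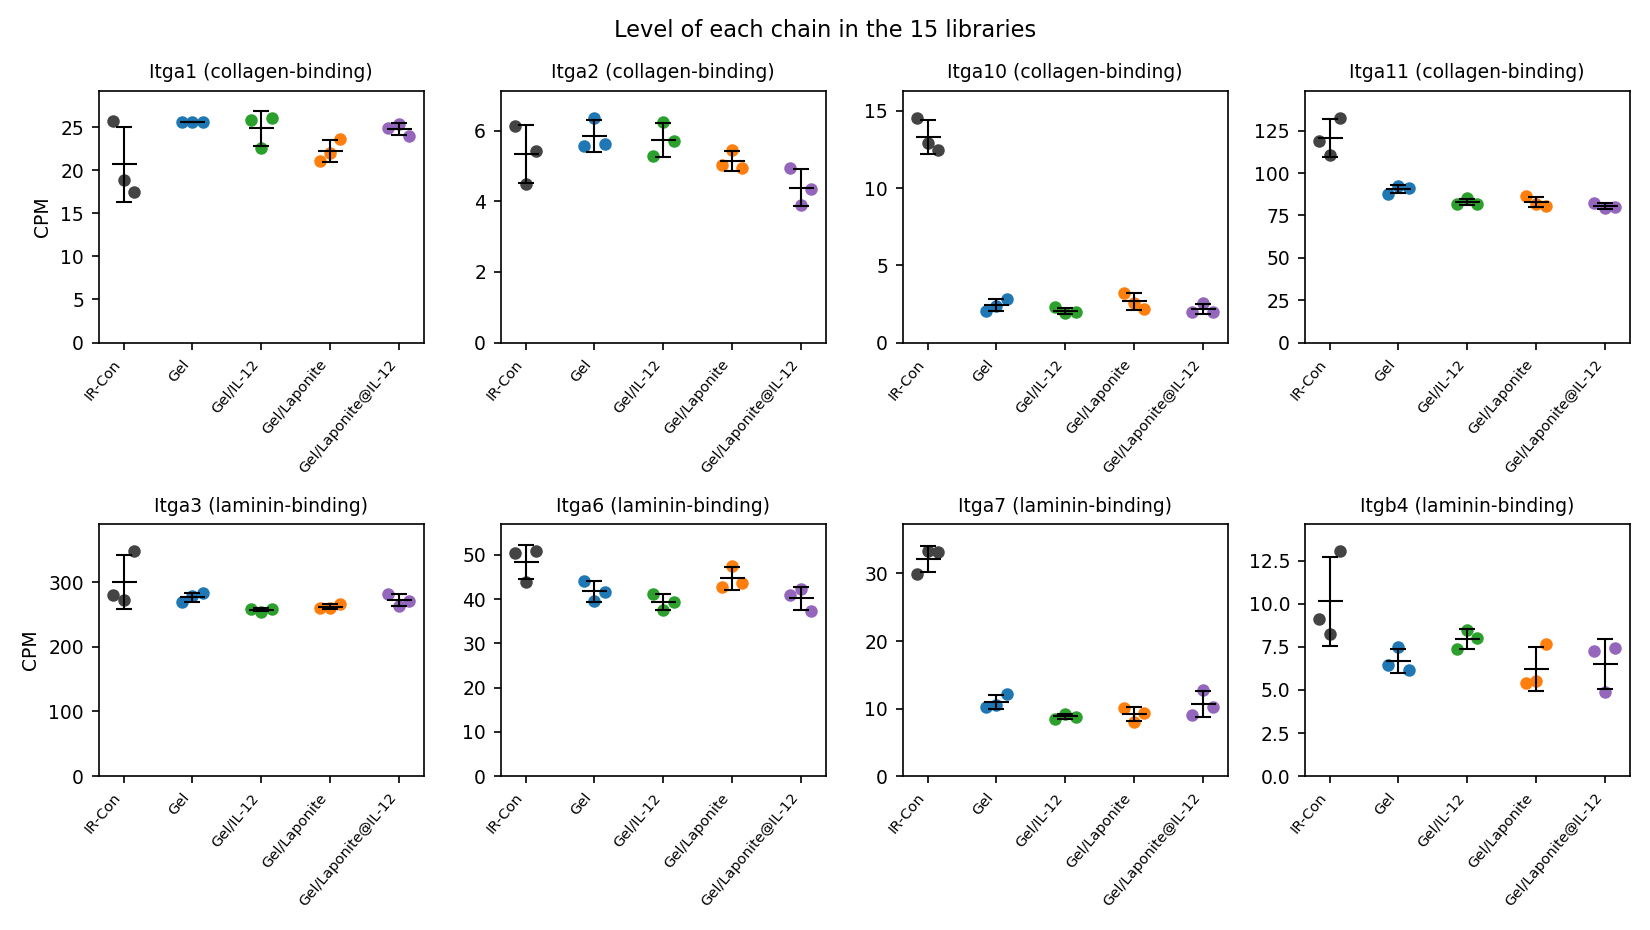
CPM (y axis, from 0) of the 8 chains in each of the 15 libraries, by group; points are libraries, bars the mean and SD of 3. For Itga10, Itga11 and Itga7 all 12 gel points lie below the 3 IR-Con points, and the other chains overlap.

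Among the laminin-binding chains Itga7 fell most. It encodes the alpha7 chain, the main laminin receptor of muscle, and lies on chromosome 10 (128933818 to 128958282). Its level was 29.9, 33.3 and 33.2 CPM in IR-Con. The Gel libraries had 10.2, 10.5 and 12.1 CPM, Gel/IL-12 had 8.48, 9.17 and 8.82, Gel/Laponite had 10.1, 8.003 and 9.40, and Gel/Laponite@IL-12 had 9.03, 12.8 and 10.2. Every gel library was far below the lowest IR-Con library, so the groups did not overlap. The gel mean was 3.26-fold lower (log2 fold change -1.70, SE 0.09, edgeR adjusted p = 5.3e-13). Skeletal muscle markers summed to 0.546 to 1.252 CPM in IR-Con and 0.448 to 1.18 in the gels, with 4 of their 6 genes at a mean under 0.1 CPM and Myod1, the muscle regulator, at 0.

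Itga3, the member with the highest FPKM in every group, fell little. It encodes the alpha3 chain, a receptor for laminins of epithelial and stromal matrices. It stood at 280.6, 272.0 and 348.4 CPM in IR-Con and at 254.6 to 283.0 CPM in the gels, with 9 of 12 gel libraries below all of IR-Con. In the deposited FPKM values, IR-Con (42.55 to 50.1, mean 45.66) and the gels (41.75 to 46.2, mean 43.67) overlapped as well. The log2 fold change was -0.17 (SE 0.05, edgeR adjusted p = 0.0095). It shrank to -0.05 without IR-Con replicate 3, the highest library (adjusted p = 0.19).

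Itga6, the alpha6 chain found on stem and progenitor cells of many tissues, had 50.4, 43.9 and 50.9 CPM in IR-Con and 37.4 to 47.6 in the gels, and 10 of 12 gel libraries lay below all of IR-Con. The log2 fold change was -0.22 (SE 0.06, edgeR adjusted p = 0.003). Itgb4, its partner in hemidesmosomes, stood at 9.11, 8.25 and 13.1 CPM in IR-Con and at 4.86 to 8.49 in the gels, with 11 of 12 gel libraries below all of IR-Con. Its log2 fold change was -0.57 (SE 0.14, edgeR adjusted p = 0.0019), and -0.35 without IR-Con replicate 3, which had the highest level (adjusted p = 0.038). The long noncoding gene B230344G16Rik, with 0 to 5 counts, runs opposite to 7.66% of its exon bases, and the strand setting of the counting is not given in the sources used here.

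With the 4 gels averaged and set against IR-Con (the gel effect), 6 of the 8 members were called lower and 1 higher at an adjusted p under 0.05. All genes were called lower at a share of 27.6% and higher at 27.4%. The median log2 fold change was -0.27 over the 4 collagen-binding and -0.40 over the 4 laminin-binding chains, beside -0.0078 over all genes tested. All gel libraries lay below all IR-Con libraries for 3 of the 8 members, Itga7, Itga10 and Itga11 (37.5%), as for 15.6% of all genes. For these 3 an exact two-sided permutation test of 3 against 12 libraries gave p = 0.0044, the smallest that 455 splits can give. Any gene without overlap gets this value, so the permutation test adds nothing to the overlap count. Among the other members, the exact two-sided permutation test gave p = 0.0088 for Itgb4, 0.013 for Itga6 and 0.048 for Itga3. The exact two-sided permutation test gave p = 0.057 for Itga1 and 0.98 for Itga2.

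Chains that bind RGD moved in both directions. Of the 8, 4 were lower, 1 was higher and 3 did not pass, with a median log2 fold change of -0.21. Itga8, which pairs with beta1 and is known from kidney and smooth muscle, was the lowest of them (-1.83, SE 0.13, edgeR adjusted p = 2.55e-10). Its CPM did not overlap between IR-Con (7.79 to 9.96) and the gels (1.60 to 3.30). Its deposited FPKM values did overlap (0.2027 to 0.2898 in IR-Con and 0.04125 to 0.3005 in the gels). Itgav, the common partner of several beta chains, was at -0.36 (SE 0.05), and Itgb5 at -0.25 (SE 0.05). Itgb3, the beta3 chain of the vitronectin receptor, was higher (0.42, SE 0.08, edgeR adjusted p = 0.000196). Itga5, the alpha chain of the main fibronectin receptor, was at 0.05, with a 95% interval of -0.06 to 0.16. The shared beta1 chain Itgb1, without which none of the collagen receptors is formed, was at -0.22 (SE 0.04, edgeR adjusted p = 0.000223). No test of the collagen- and laminin-binding set against the RGD-binding set was made.

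**Figure D2:**
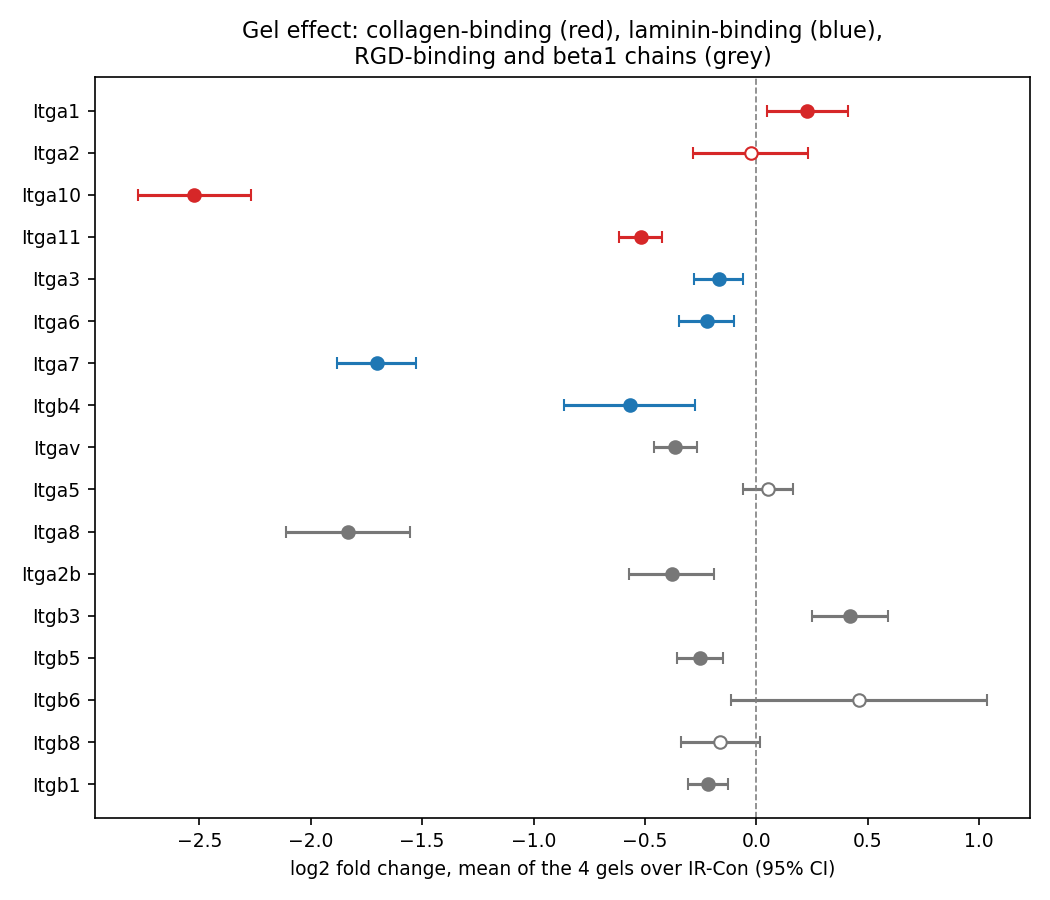
Log2 fold change of the gel effect (x axis) with its 95% interval for the 8 chains, the RGD-binding chains and Itgb1; filled points passed the edgeR test. Itga10 at -2.52, Itga8 at -1.83 and Itga7 at -1.70 stand far to the left of the rest.

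Per length, the order of the members was the same in IR-Con by FPKM and by CPM per kilobase of exons. By FPKM, Itga3 (45.7 ± 3.95, SD, n = 3) was followed by Itga11 (17.7 ± 0.977), Itga6 (6.46 ± 0.292), Itga7 (4.09 ± 0.276), Itga10 (2.75 ± 0.130), Itgb4 (1.42 ± 0.595), Itga1 (1.27 ± 0.210) and Itga2 (0.529 ± 0.0685). Only Itgb4 and Itga1 overlapped as neighbours. In the gels, Itga10 dropped to the last place (0.544 ± 0.222, SD over 12 libraries), and the neighbours from Itga1 down overlapped.

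Itga3 made up the largest share of the alpha chains in IR-Con, and in the gels its share overlapped that of Itga5. Over 12 integrin alpha chains, CPM per kilobase gave it 32.4% ± 1.87 (SD, n = 3) in IR-Con and 33.8% ± 0.842 (SD, 12 libraries) in the gels. The 4 collagen-binding chains together held 17.3% ± 0.664 in IR-Con and 13.7% ± 0.476 in the gels, with ranges of 16.8% to 18.0% and 13.0% to 14.4% that did not overlap. The 3 laminin-binding alpha chains held 38.2% ± 1.65 and 37.98% ± 0.916, and overlapped. Itga5 held 27.4% ± 2.11 and 33.3% ± 0.767. These shares add to a fixed sum, and are given as a description with no test.

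**Figure D3:**
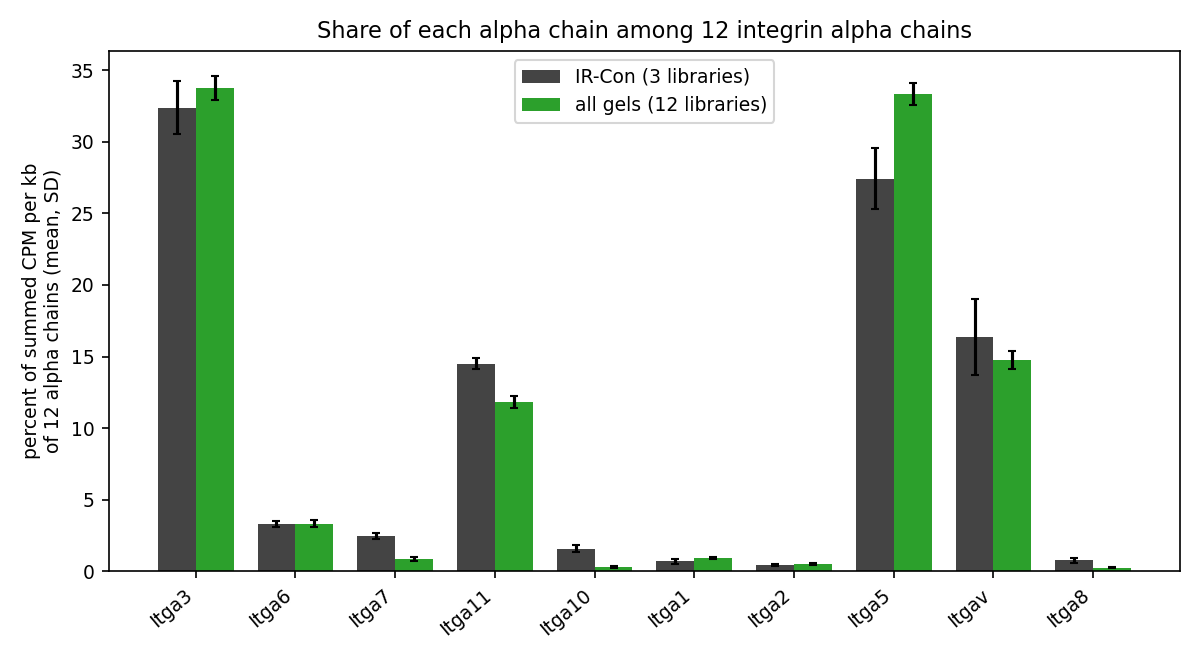
Share (y axis, percent of the summed CPM per kilobase of exons of 12 alpha chains) held by 10 of them in IR-Con and in all gels; bars are means with SD. Itga11 and Itga10 hold less in the gels and Itga5 more (33.3% against 27.4%).

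Each gel was also compared with IR-Con. The 4 comparisons share the same 3 IR-Con libraries. In Gel, 5 members were lower and 1 was higher (Itga1), where 44.7% of all genes were called in either direction. Each of the others had 5 members lower and 0 higher, where 46.5% of all genes were called with Gel/IL-12, 44.9% once Laponite stood alone in the gel, and 44.4% for the complete Gel/Laponite@IL-12. These shares cover both directions, and the share of all genes called lower alone is not given here. Itga10 had log2 fold changes of -2.47, -2.70, -2.32 and -2.61 in these gels in that order, Itga7 of -1.56, -1.86, -1.81 and -1.59, and Itga11 of -0.41, -0.54, -0.54 and -0.58. These 3 passed in all 4 comparisons.

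The remaining members passed in some of them. Itga3 passed in Gel/IL-12 (-0.22) and Gel/Laponite (-0.20). Itga6 passed in Gel (-0.21) and, at -0.30 and -0.27, for Gel/IL-12 and the complete gel. Itgb4 passed in Gel (-0.59), Gel/Laponite (-0.71) and Gel/Laponite@IL-12 (-0.63). Several of these calls rested on single libraries. Without IR-Con replicate 3, or without Gel replicate 3, the count of members lower in Gel was 3, since Itga6 and Itgb4 no longer passed, and Itga6 also failed there without IR-Con replicate 1 or Gel replicate 2. Itga3 no longer passed in Gel/Laponite without IR-Con replicate 3 (-0.08) or Gel/Laponite replicate 1 (-0.18) or 2 (-0.19). In Gel/IL-12 it shrank to -0.10 without IR-Con replicate 3 but still passed (edgeR adjusted p = 0.027). It passed in Gel without IR-Con replicate 2 (-0.18), and in the complete gel without IR-Con replicate 1 (-0.19) or 2 (-0.21). Itgb4 no longer passed in the complete gel without its replicate 2 (-0.46). Itga1 was at 0.26, 0.10 and 0.25 in Gel/IL-12, Gel/Laponite and the complete gel, with unadjusted p of 0.027, 0.37 and 0.030, and DESeq2 also called it in none of them. Without IR-Con replicate 1 it passed in all 3 (0.45, 0.29 and 0.44), and without Gel/IL-12 replicate 2 it passed in Gel/IL-12 (0.33). Its call in Gel (0.30) was lost without IR-Con replicate 2 (0.24) or 3 (0.20). It was also lost without any 1 of the Gel libraries, where the log2 fold change stayed at 0.31 (edgeR adjusted p = 0.057 to 0.063).

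Between the gels, no member passed in the edgeR fit of all 15 libraries. Fitted to only the libraries compared, edgeR called Itga11 for Laponite (adjusted p = 0.044) and for Gel/Laponite@IL-12 over Gel (0.0027), and Itga3 for the interaction (0.0083). The share of all genes called in these fits is not given here. For IL-12, the mean of the 2 gels with it over the 2 without it, 0 of 8 members were called by edgeR, by DESeq2 and by limma voom, beside 0.0192% of all genes in edgeR and 27 genes in limma voom. In edgeR the unadjusted p was under 0.05 for 269 genes and 1 member, Itga6 (log2 fold change -0.12, 95% interval -0.23 to -0.01). In limma voom it was under 0.05 for 962 genes and 2 members. For Laponite, 0 of 8 were called by the same tools, beside 0.86% of all genes in edgeR and 591 genes in limma voom. In edgeR 1007 genes and 1 member, Itga2, had an unadjusted p under 0.05 (-0.29, interval -0.52 to -0.06, edgeR adjusted p = 0.52). In limma voom 2415 genes and 2 members did. The interval of the IL-12 effect was -0.57 to 0.05 for Itga10, -0.17 to 0.0068 for Itga11 and -0.23 to 0.15 for Itga7, and that of the Laponite effect -0.19 to 0.42, -0.17 to 0.0063 and -0.18 to 0.20.

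For the interaction of IL-12 and Laponite, 0 of 8 members and 0% of all genes were called by edgeR, with an unadjusted p under 0.05 for 631 genes and 1 member, Itga7 (0.53, SE 0.18, edgeR adjusted p = 1.00). DESeq2 called 25 genes and limma voom 210 genes, and neither called a member. The complete Gel/Laponite@IL-12 against Gel had 0 of 8 called by edgeR and by DESeq2 and 1 by limma voom (Itga11), beside 0.314% of all genes in edgeR. In limma voom 313 of 15590 genes were called there. Itga11 was at -0.17 (interval -0.29 to -0.04) and Itga2 at -0.41 (interval -0.75 to -0.08) there. In edgeR both had an unadjusted p under 0.05, as had 756 of all genes.

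**Figure D4:**
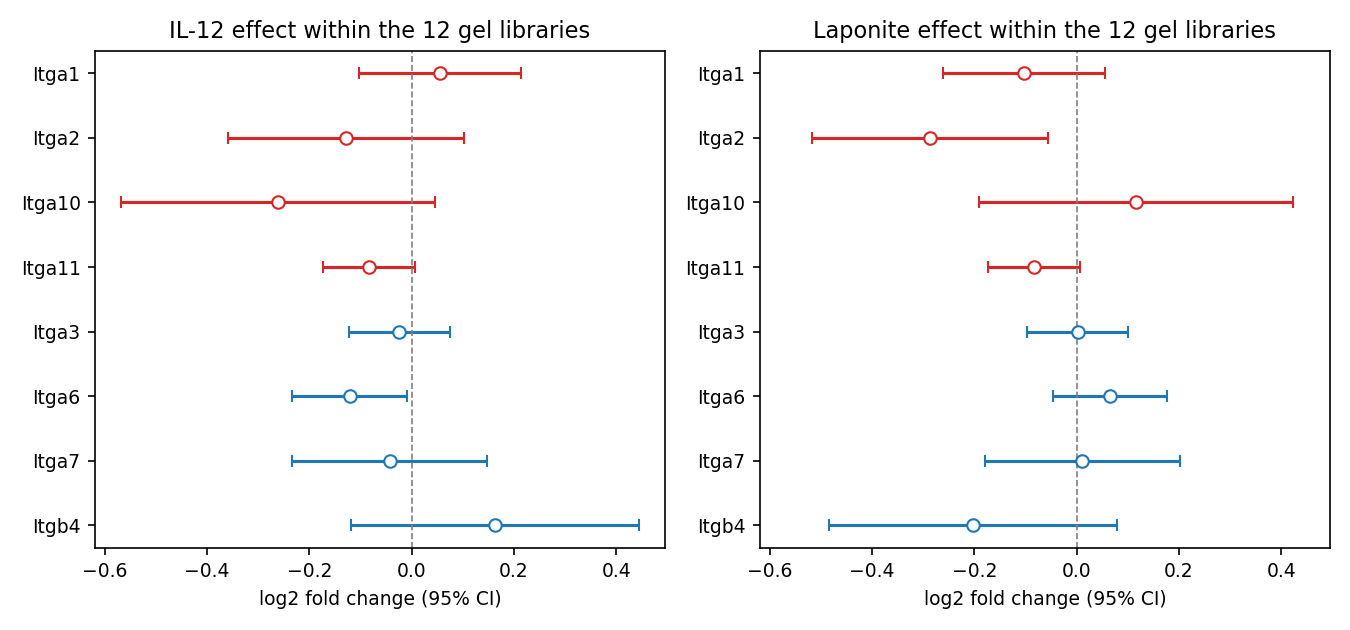
Log2 fold change (x axis) with its 95% interval of the IL-12 effect and the Laponite effect in the 12 gel libraries, by chain; open points did not pass the edgeR test, and none did. The intervals of Itga6 for IL-12 and of Itga2 for Laponite lie below 0.

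The ligands and other receptors of the matrix were also read in the gel effect, in which 27.6% of all genes were called lower and 27.4% higher. Of 10 laminin chains tested, 6 were lower and 2 higher. The smallest adjusted p were those of Lama2 (-1.32, SE 0.09) and Lama4 (-1.32, SE 0.10), subunits of laminins of muscle and vessel basement membranes, and Lama3, a subunit of epithelial laminins, had the lowest log2 fold change (-1.86, SE 0.23). Of 15 collagen chains, 8 were lower and 4 higher, and Col6a1 (-0.67, SE 0.05) and Col6a2 (-0.82, SE 0.06), chains of the beaded-filament collagen, were lower. Of 8 other collagen and laminin receptors, 4 were higher and 3 lower: Sdc4 (0.74, SE 0.04), a heparan sulfate proteoglycan, and Cd44 (0.66, SE 0.04), the hyaluronan receptor, were higher, and Ddr2 (-0.48, SE 0.05), a collagen receptor kinase, was lower. Of 4 basement membrane linkers, 3 were lower, Nid2 (-0.95, SE 0.06), Hspg2 (-0.62, SE 0.11) and Agrn (-0.24, SE 0.04), and 1 was higher, Nid1 (1.36, SE 0.04). Of 17 adaptors and kinases, 9 were lower and 3 higher, and Zyx, a focal adhesion protein, had the smallest adjusted p (-1.04, SE 0.05). Among the higher was Ilk, with 2 to 33 counts in IR-Con and 82 to 136 in the gels. Its deposited FPKM values overlapped (47.45 to 57.16 and 51.73 to 56.78), so counts and FPKM disagree for this gene. The reason was not tested.

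Over the 5 group means of log2 CPM, each gene centred on its own mean, the 2 genes closest to Itga10 were Smoc2 and Omd, with root mean square differences of 0.0511 and 0.0829. The closest to Itga7 were Olfml2a (0.0572) and Etl4 (0.0641), and to Itga11 Cyb5rl (0.0156) and Etohd2 (0.0171). Smoc2 averaged 243.2 CPM in IR-Con and 42.5 in the gels.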

How the data were processed

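RNA sequencing was done by the authors on 15 libraries, and the counts per gene and FPKM values were deposited by the authors in 1 table; the build is mm10 per the labels, and the aligner, counter and their settings are not given in the sources used here. Counts were tested with edgeR 4.0.16 (R 4.3.3; TMM, quasi-likelihood, 1 fit of 15 libraries, filterByExpr with a minimum count of 10, Benjamini-Hochberg over 15590 genes, threshold 0.05); CPM are TMM-scaled, and log2 CPM used a prior count of 2. DESeq2 1.42.0 and limma 3.58.1 were alternatives, and exact permutation used scipy 1.17.1. The fits were tested on simulated data in which all groups had the same spread, so that test does not cover the wider spread of IR-Con. Gene positions are from GENCODE M21 by ID. The table's 30 columns of the authors' comparisons (fold changes, p-values) and 20 group means were not used. Named genes were the 8 members, the RGD-binding chains and Itgb1, and from other lists at most 4 genes with the smallest adjusted p. Pdgfrb, Sox9, Myod1 and Ilk lie outside that rule and were chosen after their values were seen. Genes that overlap a member or lie closest to it over the group means are named as such. Members and lists were chosen with earlier results of these data known. The summed level of 1 marker list is not reported here.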

Additional observations from a re-analysis of the deposited data

How the results depend on the processing

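The falls of Itga7, Itga10 and Itga11 in the gels were called in every alternative of the gel effect. The other calls were less stable. With limma voom, 0 members were higher in the gel effect, and Itga6 (-0.22, adjusted p = 0.094) and Itgb4 (-0.54, adjusted p = 0.069) were no longer called; leaving out each library gave 0 to 1 higher. In Gel over IR-Con, limma voom called 3 lower and 0 higher, where it called 4657 of 15590 genes in either direction and edgeR 6968. The fit of only those libraries called 0 higher, and leaving out each library gave 3 to 6 lower and 0 to 1 higher. For the complete gel against IR-Con, limma voom and the fit of only those libraries each called 3 lower. There limma voom called 4621 of 15590 genes in either direction and edgeR 6924. The share of all genes called in the fits of only those libraries is not given here. For the same comparison, no filter called 1 higher, and leaving out each library gave 0 to 1 higher. Leaving out each library also gave 0 to 1 higher in Gel/IL-12, where no filter called 1, and 0 to 1 in Gel/Laponite. Itga3 was no longer called when edgeR was fitted to only the libraries of Gel/IL-12 and IR-Con (-0.22, adjusted p = 0.105). The same held for Gel/Laponite and IR-Con (-0.20, adjusted p = 0.152). With only the libraries compared, 1 member was called for Laponite (Itga11, -0.09), 1 for the interaction (Itga3, 0.16) and 1 for Gel/Laponite@IL-12 over Gel (Itga11, -0.17), where limma voom also called 1. The cause was not tested.

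In 39 settings, over 12 results, the sign turned, and none of these values passed the threshold. Without a filter Itga2 was at 0.0071 in the gel effect. For Itga3 and Laponite, the log2 fold change was -0.0009 with DESeq2 size factors, -0.0009 with DESeq2, -0.0062 with no filter and -0.0036 with only the gel libraries. Leaving out each library gave, for Itga1, -0.0072 to 0.29 in Gel/Laponite over IR-Con; for Itga2, -0.14 to 0.091 in the gel effect, -0.0053 to 0.22 in Gel/IL-12 and -0.17 to 0.061 in Gel/Laponite over IR-Con; for Itga3, -0.18 to 0.0047 in Gel over IR-Con and -0.015 to 0.0096 for Laponite; for Itga10, -0.19 to 0.10 for the interaction; for Itga7, -0.12 to 0.0083 for IL-12, -0.067 to 0.060 for Laponite and -0.19 to 0.07 for Gel/Laponite@IL-12 over Gel; and for Itgb4, -0.29 to 0.0025 for the interaction and -0.15 to 0.13 for Gel/Laponite@IL-12 over Gel.

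Libraries with the same replicate number did not deviate together (median correlation -0.0031 over 30 pairs, -0.07 to 0.04), so the numbers were not taken as pairs. With the replicate number as a block, 6 members were lower and 1 higher in the gel effect. Counts of 30 to 52 limit the precision of Itga10 in the gels.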
